A study of Mus musculus with 4 samples.

Results

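The transcripts of 33 glycolysis and hypoxia response genes were measured in single cells of the mouse digit before and after amputation through the middle phalanx (P2). The 33 genes were chosen by name from the 32285 genes of the deposited matrices, 21 of them for glucose uptake, glycolysis and lactate export and 12 for the response to low oxygen. Each gene was read in 4 libraries and in classes of cells defined by marker genes. Of the 33, 31 reached a level of 20 CPM, counts of UMIs per 1000000 UMIs of the class, in at least 1 class and library, and Pfkm and Aldoc, with maxima of 18.4 and 16.2 CPM, did not.

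Glycolysis turns glucose into pyruvate in the cytosol. Glucose enters through transporters such as Slc2a1 and Slc2a3, is trapped by hexokinases, is committed to the pathway by phosphofructokinase, and leaves fermenting cells as lactate through Slc16a1 and Slc16a3. When oxygen is low, the prolyl hydroxylases Egln1 and Egln3 no longer mark the factors Hif1a and Epas1 for decay. These factors raise many glycolytic genes, Pdk1, a kinase that inhibits pyruvate dehydrogenase, and targets such as Bnip3, Ddit4, Ndrg1 and Adm. Because Hif1a is controlled mainly as a protein, its mRNA is not a measure of its activity.

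The mice were wild-type FVB/NJ animals aged 8 weeks. The 4 groups were the unamputated P2 digit and the fibrosing P2 digit at 12, 17 and 28 days post-amputation (dpa), with 1 library each, so no difference given here has a replicate check and no p-value was computed. Tissue was cut out by hand, digested with trypsin and collagenase I and depleted of red cells, and live cells were sorted before 10x 3′ v3 sequencing. Each molecule is counted at its 3′ end, so levels were not scaled by transcript length.

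The libraries held 92313847 to 197140774 UMIs. After filtering, 10494, 6493, 7965 and 10236 cells remained in the unamputated, 12, 17 and 28 dpa libraries, with median depths of 11669, 9523, 8526 and 6660.5 UMIs. Pairs of libraries shared 19 to 87 cell barcodes, at most 0.57% of the smaller library. The labels give pools of male and female animals, and the cells went against this. Cells with Y-linked UMIs and no Xist made up 77.96%, 58.4% and 47.1% of the unamputated, 17 and 28 dpa libraries and 0 of 6493 cells at 12 dpa, which allows up to 0.0462%. Female cells were 54.2% at 12 dpa and 1 cell in the other 3 libraries together. At 12 dpa, the effect of amputation and that of sex cannot be told apart, while the comparisons of 17 and 28 dpa leave that library out.

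The cells fell into 32 clusters, drawn without the 33 genes, and 26 of these were named as 15 marker-like classes. Fibroblast-like cells were cluster 10 (led by Lsamp, Hpse2 and Pi16), cluster 11 (led by Ccn3, Mfap5 and Clec3b) and cluster 18 (led by Kif26b, Col7a1 and Col24a1, with tenocyte as its next class). They numbered 832, 724, 1462 and 2150 cells in the unamputated, 12, 17 and 28 dpa libraries. Osteoclast-like cells, led by Acp5, Atp6v0d2, Slc9b2 and Mmp9, numbered 90, 56, 85 and 39, and 6 of their 8 markers were detected in at least 25% of cells. This class depended on the random seed of the clustering. Of 4 other seeds, seeds 1 and 4 gave 855 and 1496 such cells and seeds 2 and 3 gave no such class, while the fibroblast-like class held 4509 to 5149 cells under the 4 seeds against 5168 here. Unnamed clusters are given by number, and values are shown only where a class held at least 50 cells in a library.

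The promoters of the genes share a sequence feature. The core to which Hif1a and Epas1 bind is ACGTG or GCGTG. It was searched on both strands, that is also as CACGT and CACGC, with overlapping matches counted, in RefSeq windows (GRCm38.p6) of 300 bases, from 250 before to 50 after each start. A window was found for 30 of the 33 genes, and Slc2a3, Epas1 and Ndrg1 are named only. A core stood in at least 1 window of 27 of the 30, 17 of 20 glycolysis genes and 10 of 10 hypoxia response genes, against 46.7% of all 27025 genes with a window. By window, 80.95% of 42 held a core against 43.8% of 32851. ACGTG alone stood in 57.1% against 19.6%. The windows also differed in composition, with a median of 22 CpG dinucleotides against 7 over all windows. Among windows with at least 20 CpG, 23 of 25 from the 33 genes held a core, against 73.6% of 8701, so part of the gap goes with CpG content. A match of these letters is a description and does not show binding.

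Shown 5′ to 3′ on the strand of each gene, with the core letters in capitals, are the windows of 6 genes on which the results below turn. Ldha makes lactate from pyruvate and holds the most matches, among them 2 overlapping pairs that each spell CACGTG, the same letters on both strands. Higd1a, a mitochondrial protein induced by low oxygen, and Eno1, the main enolase, differed between libraries in several classes. The glucose transporter Slc2a1, the lactate exporter Slc16a3 and the hydroxylase Egln3 each stood high in few classes. The windows are Ldha (chr7:46845554-46845853, plus strand), Higd1a (chr9:121857747-121858046, minus strand), the first of 3 for Eno1 (chr4:150236458-150236757, plus strand), Slc2a1 (chr4:119108495-119108794, plus strand), Slc16a3 (chr11:120948817-120949116, plus strand) and Egln3 (chr12:54203825-54204124, minus strand).
Ldha: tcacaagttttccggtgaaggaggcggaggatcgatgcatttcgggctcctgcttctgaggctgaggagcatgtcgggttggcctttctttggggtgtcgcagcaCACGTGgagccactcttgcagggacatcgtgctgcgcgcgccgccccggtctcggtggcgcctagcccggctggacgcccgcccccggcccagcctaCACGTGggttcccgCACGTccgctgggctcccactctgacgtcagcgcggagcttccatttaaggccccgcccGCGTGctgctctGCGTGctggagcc
Higd1a: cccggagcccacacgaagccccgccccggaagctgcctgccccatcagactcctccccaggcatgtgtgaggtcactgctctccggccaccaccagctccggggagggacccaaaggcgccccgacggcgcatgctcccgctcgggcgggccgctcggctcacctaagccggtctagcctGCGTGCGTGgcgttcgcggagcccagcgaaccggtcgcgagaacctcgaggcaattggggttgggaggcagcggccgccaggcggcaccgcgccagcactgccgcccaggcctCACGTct
Eno1: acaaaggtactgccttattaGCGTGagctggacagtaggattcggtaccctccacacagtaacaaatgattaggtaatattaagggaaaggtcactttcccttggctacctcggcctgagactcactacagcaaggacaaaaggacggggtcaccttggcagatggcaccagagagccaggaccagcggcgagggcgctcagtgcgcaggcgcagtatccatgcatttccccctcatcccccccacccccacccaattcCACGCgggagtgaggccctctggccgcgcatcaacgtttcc
Slc2a1: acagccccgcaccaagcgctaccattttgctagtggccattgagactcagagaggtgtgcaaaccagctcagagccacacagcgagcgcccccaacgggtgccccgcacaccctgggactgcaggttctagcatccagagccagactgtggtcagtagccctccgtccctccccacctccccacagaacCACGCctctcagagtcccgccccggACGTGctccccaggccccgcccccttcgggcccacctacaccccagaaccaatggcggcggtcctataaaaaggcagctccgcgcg
Slc16a3: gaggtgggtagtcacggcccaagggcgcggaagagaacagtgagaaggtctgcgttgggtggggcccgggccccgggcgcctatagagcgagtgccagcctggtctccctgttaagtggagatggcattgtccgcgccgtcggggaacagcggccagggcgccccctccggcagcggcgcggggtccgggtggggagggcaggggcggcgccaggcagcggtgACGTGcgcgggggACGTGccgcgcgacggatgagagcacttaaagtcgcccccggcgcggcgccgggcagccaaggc
Egln3: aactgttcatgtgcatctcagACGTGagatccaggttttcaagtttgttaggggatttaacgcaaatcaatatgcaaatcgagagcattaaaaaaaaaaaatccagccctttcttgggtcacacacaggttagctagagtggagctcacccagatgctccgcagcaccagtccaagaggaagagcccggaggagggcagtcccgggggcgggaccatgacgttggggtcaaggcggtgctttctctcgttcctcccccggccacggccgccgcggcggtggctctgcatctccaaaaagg
Ldha held 7 matches, Higd1a 3, Eno1, Slc2a1 and Slc16a3 2 each and Egln3 1. The 2 matches of Slc16a3 are both ACGTG, and those of this Eno1 window are GCGTG and CACGC.

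**Figure D1:**
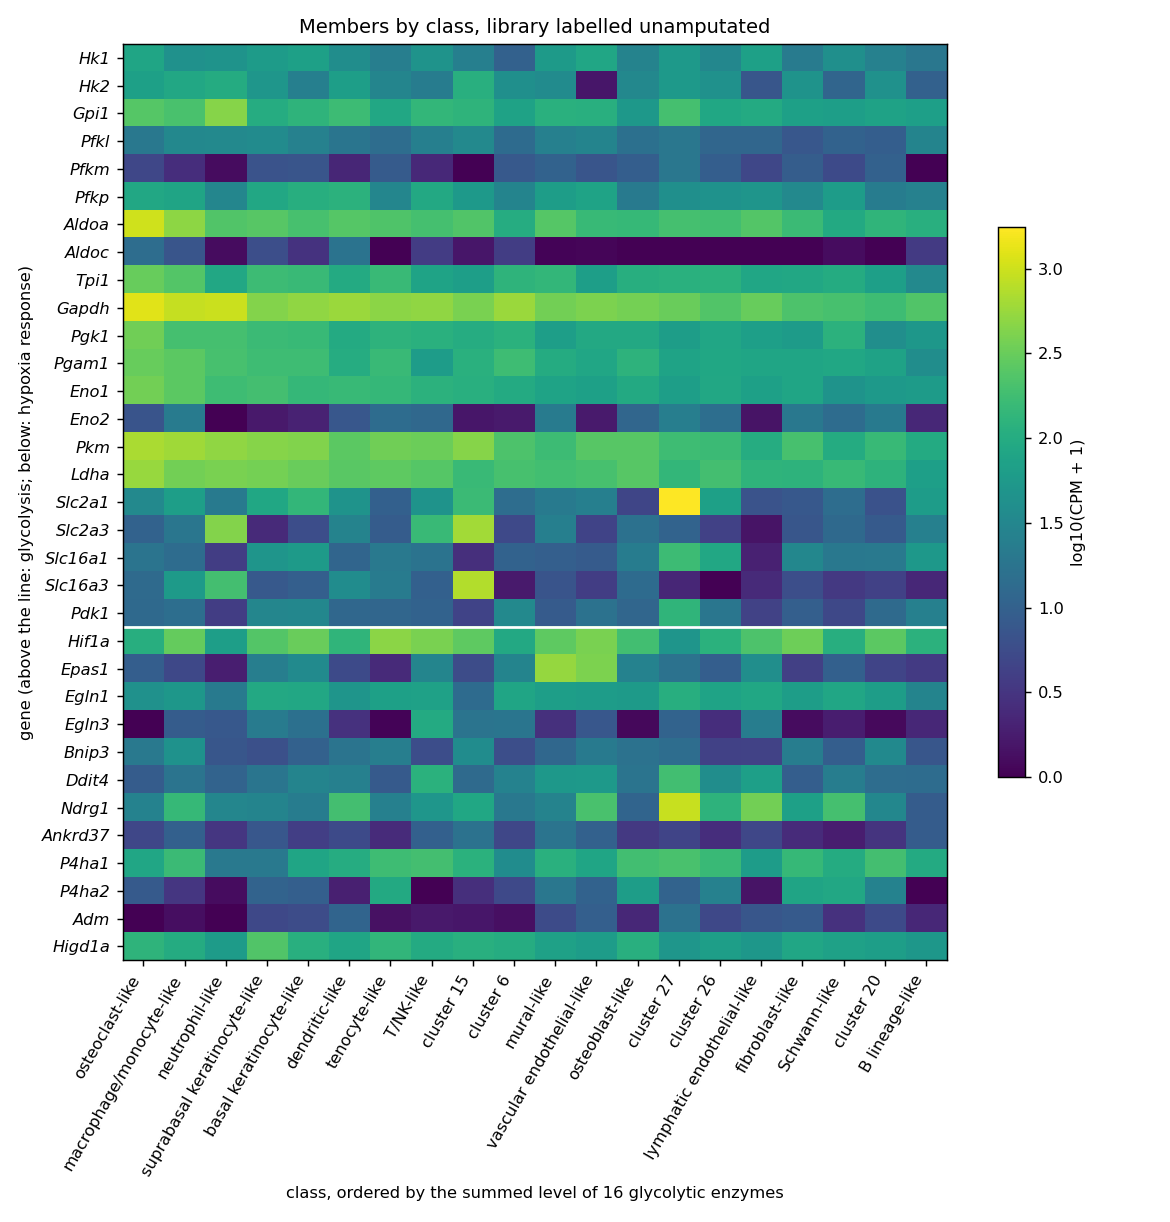
Levels of the 33 genes (rows) in 20 classes (columns) of the unamputated library, as log10(CPM + 1), with classes ordered by the summed level of 16 glycolytic enzymes. Gapdh is bright in every column, while Slc2a1, Slc2a3, Slc16a3, Epas1 and Ndrg1 are bright in few.

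Glycolytic transcripts spanned a wide range of levels over the classes. The summed level of 16 glycolytic enzymes (Hk1 to Ldha) was highest in osteoclast-like cells, the bone-resorbing class, at 5349 CPM (5248 to 5450.4) in the unamputated library, where the range is the exact Poisson 95% interval and covers counting error only. It was 4828 and 3575 CPM at 12 and 17 dpa, and at 28 dpa the class held under 50 cells. Macrophage- or monocyte-like cells stood at 3809, 3951, 2814 and 2635 CPM over the 4 libraries. Neutrophil-like cells, present in the unamputated and 17 dpa libraries, stood at 3383 and 2862 CPM. This class also depended on the seed, with 579 cells here and under seed 2, 612 under seed 3, and 1817 and 1828 under seeds 1 and 4, which placed 214 and 214 of them at 12 dpa and 180 and 181 at 28 dpa. The lowest sums in the unamputated library were those of B lineage-like cells (839 CPM), of cluster 20, led by Chad, Comp and Igf2 (1015 CPM), and of Schwann-like cells (1097 CPM).

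Fibroblast-like cells lay near this low end, at 1213, 1308, 1187 and 1627 CPM over the 4 libraries. The osteoclast-like sum was 4.41, 3.69 and 3.01 times the fibroblast-like one in the unamputated, 12 and 17 dpa libraries. With seeds 1 and 4 the same ratios were 4.67, 4.11 and 3.18, and 5.07, 4.32 and 3.88. Of those larger sets of cells only 31.6% and 14.6% were osteoclast-like here, and the rest belonged to other classes or clusters. The gap was several-fold in each of these libraries, and it was thus not particular to the cells named osteoclast-like here. In fibroblast-like cells the sum was highest at 28 dpa.

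**Figure D2:**
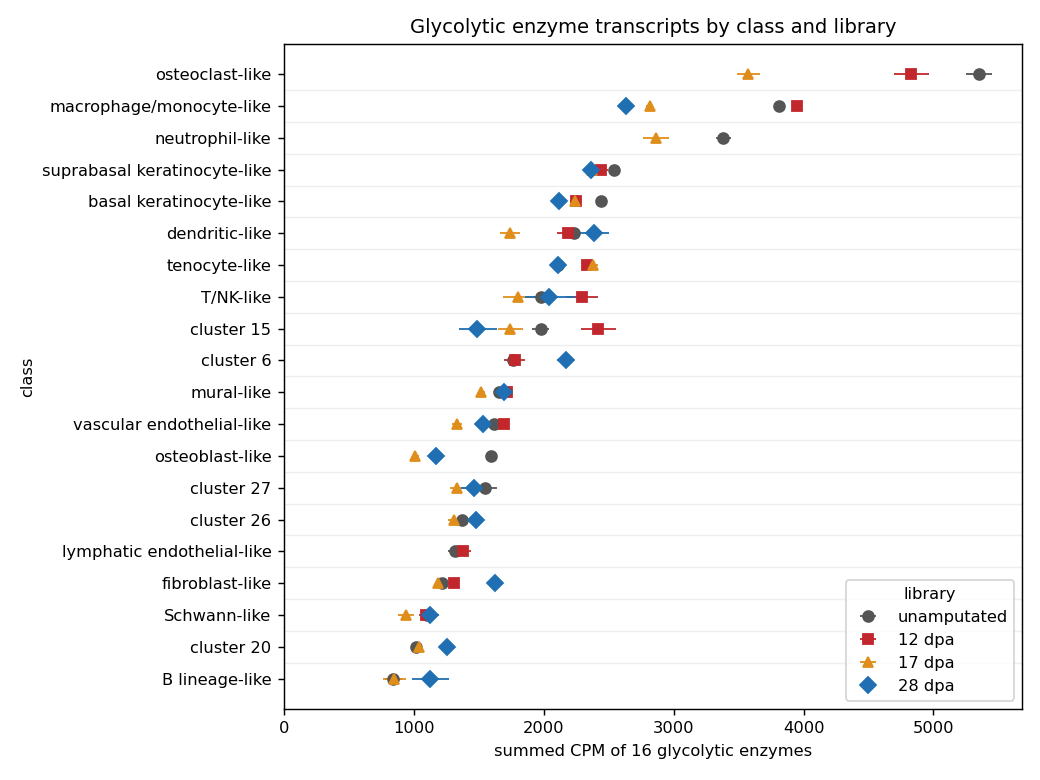
Summed CPM of 16 glycolytic enzymes (horizontal axis, from 0) by class (rows) and library (symbols), with exact Poisson 95% intervals. Osteoclast-like cells lie between 3575 and 5349 CPM and macrophage- or monocyte-like cells between 2635 and 3951 CPM, and most other classes lie lower.

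The enzymes followed this order of classes to differing degrees. Across the 20 classes of the unamputated library, the Spearman correlation of an enzyme with the sum of the others was 0.94 for Eno1, 0.91 for the pyruvate kinase Pkm, 0.87 for Gapdh and 0.91 for Ldha. It was 0.51 for Hk2, 0.54 for Pfkp, 0.57 for Tpi1, 0.59 for Pfkl, 0.35 for Hk1 and -0.26 for Eno2, the enolase named for neurons. Over the other 3 libraries, with 14, 18 and 17 classes, it ranged from 0.73 to 0.92 for Eno1, Pkm, Gapdh and Ldha. At 12, 17 and 28 dpa it was 0.55, 0.11 and 0.19 for Hk2, 0.046, 0.53 and 0.56 for Pfkp and -0.11, 0.32 and 0.39 for Hk1. At 28 dpa it was 0.38, 0.41 and 0.44 for Gpi1, Pfkl and Tpi1. The points are classes of 1 library and share its depth, so these are descriptions.

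Glucose transporters marked different cells. Slc2a1 (GLUT1, the carrier of blood-tissue barriers and red cells) stood at 1757, 1742 and 1462 CPM in cluster 27 of the unamputated, 17 and 28 dpa libraries, which had 58, 143 and 70 such cells. This unnamed cluster is led by Fgl2, Itih5 and Luzp2, and Slc2a1 is itself its ninth leading gene although it had no part in the clustering. With every cell thinned to 1000 UMIs, 74.1% of cluster 27 cells of the unamputated library held an Slc2a1 UMI (100% unthinned, median depth 13501 UMIs). In fibroblast-like cells the share was 0.841% (12.4% unthinned, median depth 19550.5 UMIs). Cluster 27 also held the highest Ndrg1, at 929, 1097 and 909.6 CPM, the highest Pdk1, at 133, 118 and 109.6 CPM, and high Slc16a1, at 169, 119.6 and 92.3 CPM, in the same 3 libraries. A transporter, a lactate carrier and the kinase that inhibits pyruvate dehydrogenase were therefore all high in the same small group of cells. Basal keratinocyte-like cells had Slc2a1 at 139.8, 202, 99.7 and 81.7 CPM over the 4 libraries. In osteoblast-like cells it was at 3.73, 5.44 and 9.28 CPM in the unamputated, 17 and 28 dpa libraries, and in cluster 20, lymphatic endothelial-like, fibroblast-like and tenocyte-like cells it stayed at or below 9.78 CPM.

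Slc2a3 (GLUT3, a carrier of high affinity) and Slc16a3 (MCT4, the lactate exporter of highly glycolytic cells) were high together in neutrophil-like cells and in cluster 15, led by Ccrl2, Slc7a11 and Il1b. In cluster 15 Slc2a3 was at 623, 428, 427 and 496 CPM and Slc16a3 at 748, 724, 630.0 and 794 CPM over the 4 libraries. In neutrophil-like cells Slc2a3 was at 438 and 380.2 CPM and Slc16a3 at 185 and 271 CPM in the unamputated and 17 dpa libraries. The balance within each family differed by class in the unamputated library. Slc2a3 held 95.5% of the UMIs of both glucose transporters in neutrophil-like cells and 0.554% in cluster 27. Slc16a3 held 99.8% of the UMIs of both lactate carriers in cluster 15, 42.4% in osteoclast-like cells and 14.3% in fibroblast-like cells. Cluster 15 was shallow, with a median of 2412 UMIs per cell in the unamputated library, and after thinning 44.1% of its cells held an Slc16a3 UMI (68.99% unthinned) against 0.29% of vascular endothelial-like cells (2.9% unthinned, median depth 10788 UMIs). Its nearest class was neutrophil, and it was left unnamed by the rule for shallow clusters with no marker of that class among their 10 leading genes.

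**Figure D3:**
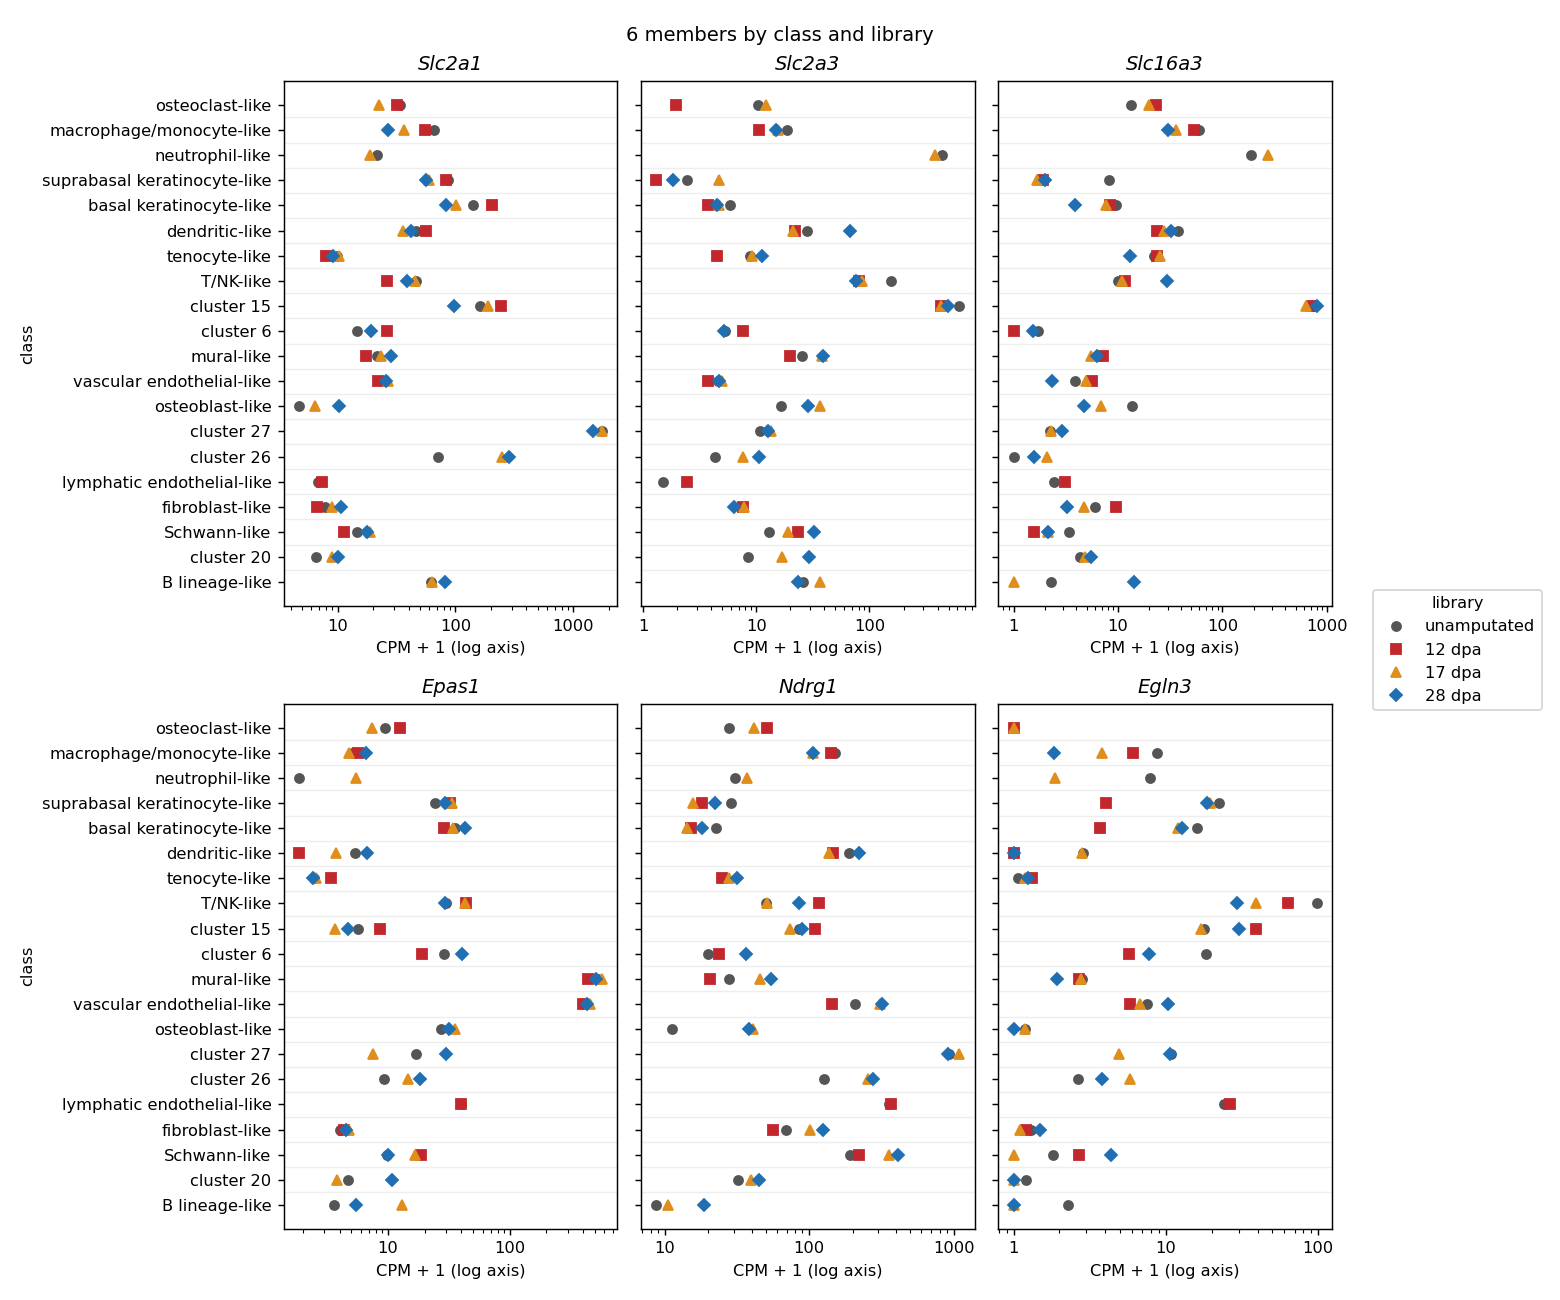
CPM + 1 (log axis) of 6 genes by class (rows) and library (symbols). In each panel a few classes stand apart in all libraries that hold them, for example cluster 27 for Slc2a1 and Ndrg1, and mural-like and vascular endothelial-like cells for Epas1.

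The first steps of the pathway used different family members. Hk1, the general hexokinase, was highest in vascular endothelial-like cells of the unamputated library, at 83.03 CPM in the unamputated library and 61.5, 72.3 and 61.8 CPM at 12, 17 and 28 dpa. Hk2, the inducible hexokinase, was nearly absent there, with 0.692% (95% binomial interval 0.332 to 1.27) of the UMIs of both in the unamputated library. Hk2 held 68.1% in fibroblast-like, 68.5% in neutrophil-like and 46.03% in osteoclast-like cells. Gpi1, which makes fructose 6-phosphate, was highest in neutrophil-like cells, at 449 and 409 CPM in the unamputated and 17 dpa libraries, and next in osteoclast-like cells of the unamputated library, at 247 CPM. Among phosphofructokinases, Pfkp held 69.1% of UMIs in fibroblast-like and 79.5% in osteoclast-like cells, and in neutrophil-like cells Pfkl, the liver form, held 51.4% (interval 44.5 to 58.2). Pfkp was highest in dendritic-like cells at 28 dpa, at 146 CPM. The muscle form Pfkm held 16.8% in fibroblast-like cells, at a level of 8.01 CPM.

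The enzymes from aldolase to lactate dehydrogenase were highest in osteoclast-like cells among the 20 classes of the unamputated library, except for the isoforms Aldoc and Eno2. Over the unamputated, 12 and 17 dpa libraries, Aldoa, which splits the sugar into trioses, was there at 1019, 875 and 499 CPM. Gapdh, which oxidises them, was at 1259, 1299 and 949 CPM. Pkm stood at 675, 692 and 488 CPM and Ldha at 550.2, 483 and 439 CPM. All 4 were lowest at 17 dpa. The triose isomerase Tpi1 was at 308, 323 and 309 CPM, Pgk1, which forms the first ATP of the pathway, at 347, 289 and 223 CPM, and the mutase Pgam1 at 309.7, 278 and 214 CPM. Pgk1 and Pgam1 were lowest at 17 dpa too, whereas Tpi1 was nearly level. The brain aldolase Aldoc held 6.24% of aldolase UMIs in dendritic-like and 1.29% in osteoclast-like cells of the unamputated library. Eno2 held 22.3% of enolase UMIs in mural-like, 19.2% in fibroblast-like and 1.65% in osteoclast-like cells of that library.

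The 2 hypoxia-inducible factors divided by class. Epas1 (HIF-2 alpha, prominent in blood vessels) was at 533, 439, 574 and 508 CPM in mural-like cells and 403, 395, 455 and 433 CPM in vascular endothelial-like cells over the 4 libraries. Its next highest level in any class and library was 42.9 CPM, in T- or NK-like cells at 12 dpa. It held 66.2% of the UMIs of both factors in mural-like, 51.04% in vascular endothelial-like and 0.909% in fibroblast-like cells of the unamputated library. Hif1a mRNA was in every class, from 47.7 CPM in cluster 27 to 480.4 CPM in tenocyte-like cells of that library. The hydroxylase Egln1 (PHD2, the main oxygen sensor) ranged from 11.02 CPM in cluster 15 to 115 CPM in cluster 27, both at 28 dpa. Egln3 (PHD3) was at 96.5 CPM in the unamputated library and 62.5, 38.1 and 28.1 CPM at 12, 17 and 28 dpa in T- or NK-like cells, the highest class in the first 3, while at 28 dpa cluster 15 stood at 29.4 CPM. Egln1 was thus broad and Egln3 stood high in few classes.

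Targets of the factors also differed by class. Ndrg1, a stress-responsive gene of myelin and vessels, was high in Schwann-like cells at 191, 219.8, 359 and 411 CPM over the 4 libraries, and in lymphatic endothelial-like cells at 356 and 369 CPM in the unamputated and 12 dpa libraries. Ddit4 (REDD1, an inhibitor of mTOR) was highest in T- or NK-like cells at 12 dpa, at 204 CPM, and in cluster 27 of the unamputated library, at 179.9 CPM. The collagen prolyl hydroxylase subunit P4ha2 was highest in tenocyte-like cells, at 91.8, 89.3, 108 and 112 CPM over the 4 libraries, and stood at 78.04, 86.7, 81.7 and 76.5 CPM in fibroblast-like cells. P4ha1, the other subunit of that kind, was broader, with 206 CPM in cluster 27 and 189 CPM in cluster 20 of the unamputated library. Higd1a was highest in suprabasal keratinocyte-like cells, at 229, 354, 373 and 286 CPM over the 4 libraries. Bnip3, which acts in the removal of mitochondria, peaked at 43.7 CPM in macrophage- or monocyte-like cells of the unamputated library. Ankrd37 stayed at or below 38.2 CPM and the vasodilator peptide Adm at or below 24.2 CPM in every class and library.

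Between libraries, fibroblast-like cells were compared first, since fibroblasts build the scar. At 28 dpa a set of glycolytic and hypoxia genes, Higd1a, Ndrg1, Pfkp, Bnip3, Ldha and Pkm, was higher than in the unamputated library and Hif1a was lower, while at 12 and 17 dpa 0 of the genes were higher and 2 were lower. A gene counts as higher or lower where the higher library had at least 20 CPM, the ratio was at least 1.5-fold either way (a log2 ratio of 0.58, with a pseudocount of 1 CPM) and the exact conditional binomial 95% interval, which covers counting error only, left out a ratio of 1. Of the 33 genes, 20 reached 20 CPM there in either library of a pair, 13 of the glycolysis and 7 of the hypoxia response genes. At 12 dpa against the unamputated library 0 were higher and 2 lower, where 3.14% and 6.02% of all genes measured were. At 17 dpa 0 were higher and 2 lower (3.14% and 6.76% of all genes). At 28 dpa 6 were higher and 1 lower (13.1% and 21.7%), and at 28 against 17 dpa 3 were higher and 0 lower (4.33% and 8.13%). The members' median log2 ratios were 0.09, 0.09, 0.39 and 0.28 in these comparisons, and those of all measured genes -0.04, -0.05, -0.13 and -0.06. With ratios centred on the median of all genes, the members higher and lower at 17 dpa were 2 and 2. The first 3 comparisons share the unamputated library, so their values are given side by side only.

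**Figure D4:**
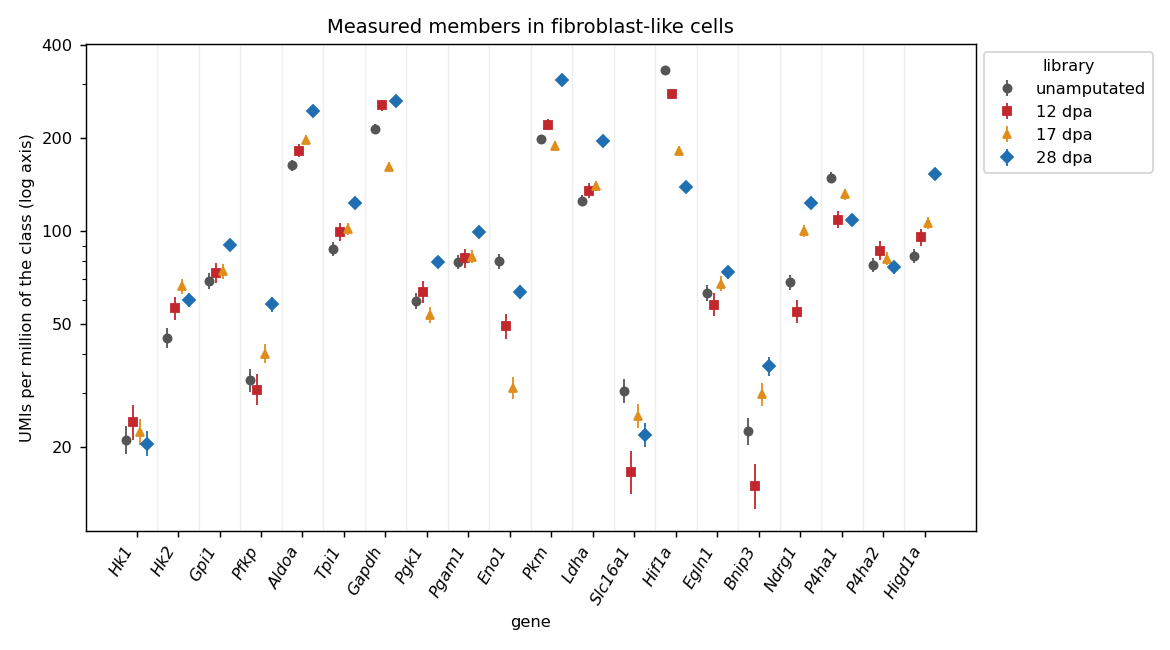
CPM (log axis) of the 20 measured genes in fibroblast-like cells of the 4 libraries (symbols), with exact Poisson 95% intervals. Hif1a lies highest in the unamputated library and lowest at 28 dpa, Eno1 is lowest at 17 dpa, and Pfkp, Pkm, Ldha, Ndrg1, Bnip3 and Higd1a are highest at 28 dpa.

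Of the glycolytic genes in fibroblast-like cells, Pfkp, Pkm and Ldha were higher at 28 dpa than in the unamputated library. Pkm, which makes pyruvate, was at 199 CPM in the unamputated library and 222, 189.6 and 308 CPM at 12, 17 and 28 dpa, a log2 ratio of 0.63 (0.57 to 0.69) at 28 dpa, with the 95% interval in brackets, and of 0.70 (0.64 to 0.76) against 17 dpa. Its level at 28 dpa stood apart from the other 3 libraries. Ldha was at 126 CPM in the unamputated library and 135, 140.2 and 196 CPM at 12, 17 and 28 dpa, a log2 ratio of 0.63 (0.56 to 0.71) at 28 dpa. Pfkp, the main phosphofructokinase of these cells, was at 32.98 CPM in the unamputated library and 30.8, 40.2 and 58.04 CPM at 12, 17 and 28 dpa, with 0.80 (0.67 to 0.96) at 28 dpa. The unamputated and 12 dpa levels of Pfkp overlapped within their counting intervals, and the 28 dpa level lay above all others. Gapdh was at 215 CPM in the unamputated library and 256, 162 and 265 CPM at 12, 17 and 28 dpa and was higher at 28 against 17 dpa only (log2 0.71 (0.65 to 0.77)). Eno1, which forms phosphoenolpyruvate, went the other way, at 79.98 CPM in the unamputated library and 49.4, 31.1 and 63.6 CPM at 12, 17 and 28 dpa. It was lower at 12 dpa (log2 -0.68 (-0.85 to -0.54)) and 17 dpa (-1.33 (-1.504 to -1.22)) and higher at 28 than at 17 dpa (1.01 (0.89 to 1.17)).

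The lactate and pyruvate carrier Slc16a1 was lower at 12 dpa, at 30.5 CPM in the unamputated library and 16.6, 25.3 and 21.9 CPM at 12, 17 and 28 dpa (log2 -0.84 (-1.14 to -0.61)). The other 7 measured glycolytic genes, Hk1, Hk2, Gpi1, Aldoa, Tpi1, Pgk1 and Pgam1, passed the rule in none of the 4 comparisons. Aldoa, at 164 CPM in the unamputated library and 183, 198 and 245 CPM at 12, 17 and 28 dpa, had a log2 ratio of 0.58 (0.52 to 0.65) at 28 dpa, which is short of the threshold before rounding. The remaining 8 glycolysis genes, Pfkl, Pfkm, Aldoc, Eno2, Slc2a1, Slc2a3, Slc16a3 and Pdk1, stayed under 20 CPM in these cells.

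Of the hypoxia response genes in fibroblast-like cells, Hif1a was at 334 CPM in the unamputated library and 279, 182 and 139 CPM at 12, 17 and 28 dpa. Its level was lower the later the library, with log2 ratios of -0.26 (-0.33 to -0.19), -0.87 (-0.93 to -0.81) and -1.26 (-1.33 to -1.20), the first short of the threshold. Higd1a went the other way, at 83.3 CPM in the unamputated library and 95.7, 106 and 154 CPM at 12, 17 and 28 dpa, with 0.87 (0.79 to 0.97) at 28 dpa. Ndrg1 was at 68.4 CPM in the unamputated library and 55.00, 101 and 123 CPM at 12, 17 and 28 dpa (log2 0.84 (0.75 to 0.95) at 28 dpa), and Bnip3 at 22.6 CPM in the unamputated library and 15.02, 29.7 and 36.6 CPM at 12, 17 and 28 dpa (log2 0.67 (0.52 to 0.87)). Both were lowest at 12 dpa and highest at 28 dpa. The oxygen sensor Egln1, at 63.1, 57.97, 67.7 and 73.9 CPM over the 4 libraries, passed the rule in none of the comparisons. Neither did P4ha1, at 149, 109, 132 and 109 CPM, or P4ha2, whose levels are given above. Epas1, Egln3, Ddit4, Ankrd37 and Adm stayed under 20 CPM.

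The mix of the 3 fibroblast-like clusters differed between libraries. Cluster 10 supplied 444, 70, 1037 and 961 cells, cluster 11 149, 215, 363 and 1181 and cluster 18 239, 439, 62 and 8 in the unamputated, 12, 17 and 28 dpa libraries. The clusters themselves differed in level, with Pkm at 161, 238 and 232 CPM and Higd1a at 72.9, 111 and 80.4 CPM in clusters 10, 11 and 18 of the unamputated library. Within a cluster, fewer of the 28 dpa differences passed the rule. Pkm, Pfkp and Higd1a were higher in cluster 11 (log2 0.66, 0.59 and 0.70) and did not pass in cluster 10 (0.06, 0.38 and 0.45). Ndrg1 was higher in cluster 10 (1.21) and did not pass in cluster 11 (0.16). Ldha (0.26 and 0.57) and Bnip3 (0.35 and 0.50) passed in neither. Cluster 18 had 8 cells at 28 dpa and gives no value there. Other choices also ended calls at 28 dpa: with no doublets removed Ndrg1 was at 0.10, with the stricter cell filter Bnip3 at 0.47, in cells of 5000 to 20000 UMIs Pfkp at 0.47, and pooled with tenocyte-like cells Ldha at 0.13 and Pkm at 0.37. Pooled in that way, Gapdh at 28 against 17 dpa was at 0.29.

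Hif1a and Eno1 were lower within clusters as well. Hif1a at 28 dpa was lower in clusters 10 and 11 (log2 -1.20 and -0.98). Eno1 at 17 dpa was lower in clusters 10, 11 and 18 (-1.52, -1.37 and -1.22), and at 28 dpa, where the class as a whole missed the threshold (-0.33), in clusters 10 and 11 (-1.03 and -0.66). Slc16a1 at 12 dpa passed in none of the 3 clusters (-0.40, -0.28 and -0.64, the last under 20 CPM). In cluster 18, from 62 cells at 17 dpa, 6 of 21 measured members were higher and 1 lower at that time, where 6.47% and 5.72% of all genes in this cluster were. The higher members with the largest ratios were Slc2a3, at 35.3 against 7.79 CPM, Slc16a3, at 20.6 against 10.1 CPM, and Bnip3, at 32.4 against 17.7 CPM. At 12 dpa the calls of Eno1 and Slc16a1 ended without cluster 18, at -0.44 and -0.38. The split was made after seeing the data.

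Hk2, which passed the rule in no comparison of the class as a whole, went in opposite directions within clusters 10 and 11. In cluster 10 it was at 47.1 CPM in the unamputated library and 79.7, 85.1 and 127 CPM at 12, 17 and 28 dpa, higher in all 3. In cluster 11 it was at 51.9 CPM in the unamputated library and 56.8, 27.1 and 26.8 CPM, lower at 17 and 28 dpa. The hexokinase that traps glucose was thus at 127 CPM in one fibroblast-like cluster and 26.8 CPM in another of the same 28 dpa library. Hk2 was singled out after its values were seen, and with 1 library per group the difference between the clusters was not tested.

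Other gene groups also differed between libraries in fibroblast-like cells. The nuclear-encoded respiratory chain, which burns the pyruvate that glycolysis yields, was read in 94 genes. Of these, 3 of 82 measured were higher at 12 dpa, 5 of 82 at 17 dpa and 57 of 83 at 28 dpa, and 0 were lower in any. Of all genes, 3.14%, 3.14% and 13.1% were higher and 6.02%, 6.76% and 21.7% lower, so at 12 dpa the share of higher chain genes was near that background. The median log2 ratio of the chain genes at 28 dpa was 0.75, against 0.39 for the 33 genes and -0.13 for all genes. The largest were Ndufb4, at 266 against 105 CPM, and Uqcr11, at 246 against 115 CPM. Of 17 genes of dissociation stress, 12 were lower at 12 dpa (6.02% of all genes) and 8 higher at 17 dpa (3.14%). At 28 dpa 5 of them were higher and 1 lower (13.1% and 21.7% of all genes). Among them Zfp36 was at 252 against 80.3 CPM at 28 dpa.

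Ratios also went with the genomic span of a gene over all genes. At 28 dpa the median log2 ratio in fibroblast-like cells was 0.45 for genes of up to 10000 bp and -0.67 for genes over 100000 bp. At 17 dpa these medians were 0.20 and -0.27, and at 12 dpa 0.069 and -0.053. Of the 33 genes, 21 span up to 30000 bp and 1, Hk1, over 100000 bp. The part of dissociation, of gene span and of sequencing depth in the members' ratios was not tested. Markers of other cell types also differed. Over the 4 libraries, 15 macrophage or monocyte markers summed to 62.1, 36.4, 82.6 and 141 CPM in fibroblast-like cells, and 10 suprabasal keratinocyte markers to 156, 181, 287 and 677 CPM. The 8 osteoclast markers summed to 824, 697, 1198 and 1242 CPM, with 1, 3, 0 and 2 of them at 0, beside 48163 to 71557 CPM for the 11 fibroblast markers. The part of these in the ratios was not tested.

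From lists of further pathway genes, 8 of 31 genes of glycolysis and pyruvate use were measured in fibroblast-like cells against the unamputated library. Of these, 0 were higher and 1 lower at 12 dpa, 1 and 1 at 17 dpa and 3 and 0 at 28 dpa. Of all genes, 3.14% and 6.02%, 3.14% and 6.76%, and 13.1% and 21.7% were higher and lower at these times. At 28 dpa Mpc2 and Mpc1, the subunits of the mitochondrial pyruvate carrier, were at 241 against 122 CPM and 179 against 105 CPM, and Pdhb, of pyruvate dehydrogenase, which was named after its values were seen, at 35.03 against 22.3 CPM. Mpc2 was already higher at 17 dpa, at 193 CPM. The lower genes were Pdp1, a pyruvate dehydrogenase phosphatase, at 10.7 against 23.7 CPM at 12 dpa, and Bpgm, which makes 2,3-bisphosphoglycerate, at 26.2 against 50.2 CPM at 17 dpa.

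Of 36 further hypoxia pathway genes, 22 were measured, of which 1, 0 and 3 were higher and 4, 5 and 5 lower at 12, 17 and 28 dpa. Over all genes measured the shares higher were 3.14%, 3.14% and 13.1% and those lower 6.02%, 6.76% and 21.7%. At 28 dpa the list stood near this background in both directions, and at 12 and 17 dpa its share of lower genes lay above it. At 28 dpa Loxl2, a collagen crosslinking enzyme, was at 748 against 453 CPM. Its relative Lox was lower, at 162 against 407 CPM, as was the lipase inhibitor Angptl4, at 10.9 against 29.9 CPM. At 17 dpa Angptl4 was lower still, at 7.67 CPM, and the collagen lysyl hydroxylase Plod2 stood at 89.05 against 148 CPM. At 12 dpa Mif, a cytokine gene, was the 1 higher, at 251 against 151 CPM, and the lowest ratios were those of Cited2, a Hif1a antagonist, at 15.2 against 38.3 CPM, and Arnt2, at 18.4 against 40.7 CPM.

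Eno1 was lower after amputation in nearly all classes. In osteoclast-like cells it was at 355 CPM in the unamputated library and 161 and 92.97 CPM at 12 and 17 dpa. In macrophage- or monocyte-like cells it was at 263 CPM in the unamputated library and 144, 80.5 and 105 CPM at 12, 17 and 28 dpa. In osteoblast-like cells, too few at 12 dpa, it was at 91.5 CPM in the unamputated library and 19.6 and 36.8 CPM at 17 and 28 dpa. The unamputated library was highest in all 20 classes. Against it, Eno1 was lower by the rule in 12 of 14 classes at 12 dpa, 17 of 18 at 17 dpa and 13 of 17 at 28 dpa, with median log2 ratios over classes of -0.85, -1.30 and -0.75. Of genes measured in every class, 0.261%, 0.237% and 1.78% were lower in as many classes. With the 4 other seeds, Eno1 was lower at 17 dpa in 16 of 17, 17 of 19, 17 of 18 and 16 of 18 classes. At 28 against 17 dpa, which leaves out the unamputated library, Eno1 lay above in 16 of 16 classes and was higher by the rule in 6. Of genes measured in every class, 1.62% were higher by the rule in as many. No share of all genes was computed for the 16 of 16 or for the 20 classes. The classes of a library are not replicates.

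With 1 library per group, a difference in Eno1 after amputation and a difference between the libraries cannot be told apart. Of genes measured in every class, 6, Eno1 included, were lower in at least 17 of 18 classes at 17 dpa. The others were Ubb, a ubiquitin gene, the ribosomal protein genes Rpl29 and Rpl35, and the gene models Gm11808 and Gm10260, and they were named after their values were seen. Rpl29 and Rpl35 belong to families with many near-identical copies, so their counts are uncertain. In fibroblast-like cells Ubb was at 675 and 279 CPM in the unamputated and 17 dpa libraries. Eno1 has a retrocopy, Eno1b, that could share reads, so its counting is uncertain. The level of Eno1b was at most 9.3 CPM in any class and library, and reads shared by both copies were not tested.

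**Figure D5:**
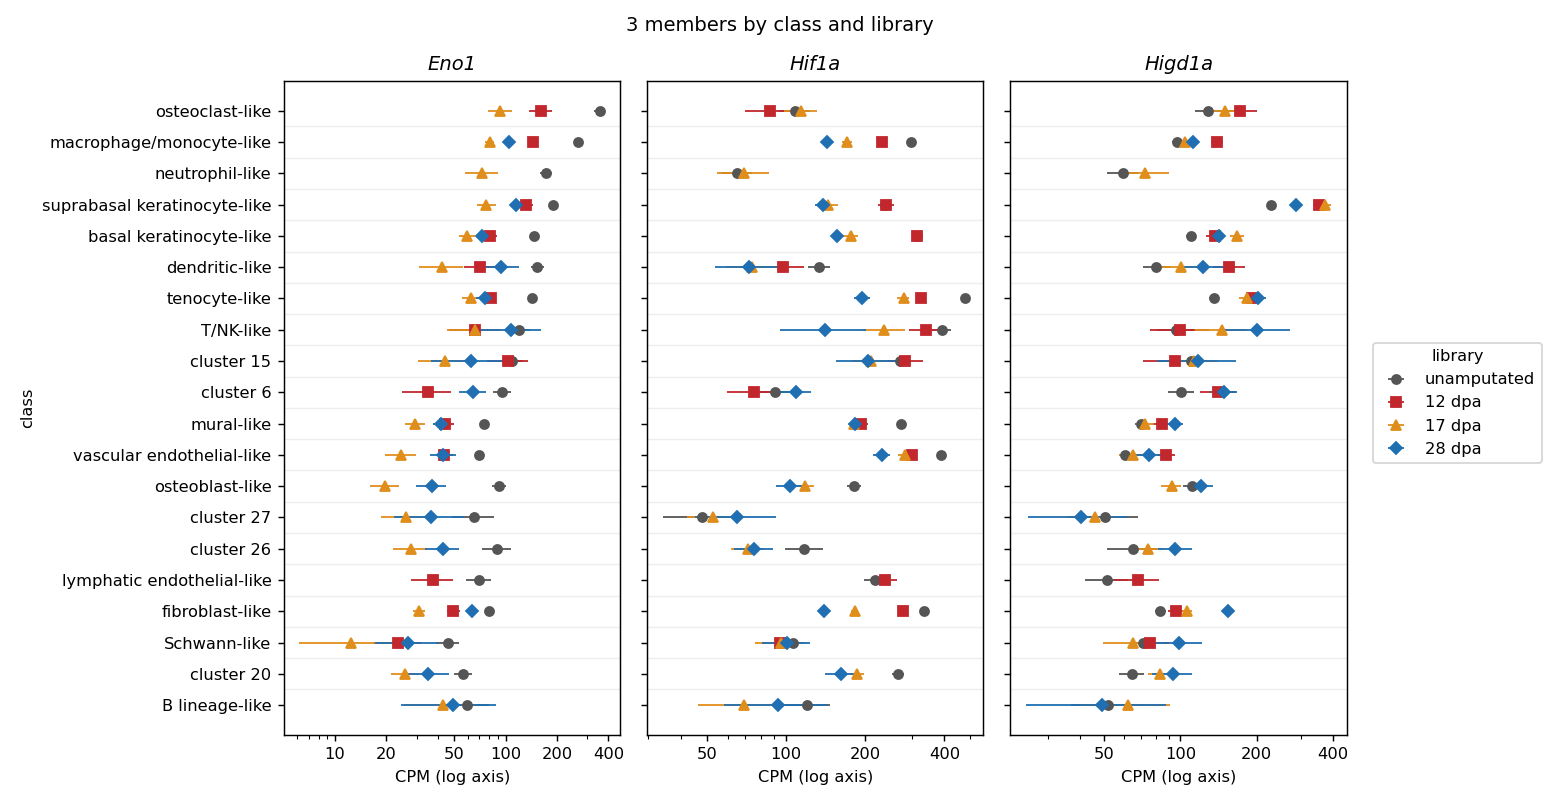
CPM (log axis) of Eno1, Hif1a and Higd1a by class (rows) and library (symbols), with exact Poisson 95% intervals. The unamputated symbol is the rightmost for Eno1 in all 20 classes and for Hif1a in 12 of 20, and it is the leftmost for Higd1a in 15 of 20.

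Hif1a and Higd1a differed in opposite directions over classes. Hif1a was lower by the rule in 0 of 14, 10 of 18 and 11 of 17 classes at 12, 17 and 28 dpa. At the last 2 times, 1.03% and 3.84% of genes measured in every class were lower in as many. In tenocyte-like cells it was at 480.4 CPM in the unamputated library and 326, 279.6 and 194 CPM at 12, 17 and 28 dpa, and in vascular endothelial-like cells at 387 CPM in the unamputated library and 300.1, 283 and 231 CPM at 12, 17 and 28 dpa. In Schwann-like cells it was at 107, 95.1, 95.6 and 101 CPM over the 4 libraries, and passed the rule in none of the comparisons. Higd1a was higher by the rule in 2 of 14, 3 of 18 and 3 of 17 classes and lower in 0, with 10.4%, 6.33% and 16.7% of genes higher in as many. It lay above the unamputated library in 13 of 14, 15 of 18 and 15 of 17 classes. The share of all genes that lay above in as many classes was not computed, so these counts have no background.

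In tenocyte-like cells, of the tendon lineage, Hif1a, Hk2, Eno1 and Slc16a3 were lower and Bnip3 was higher at 28 dpa. Higher and lower members numbered 0 and 2 of 20 (all genes, 4.99% and 14.3%) at 12 dpa, 0 and 2 of 20 (all genes, 4.75% and 6.87%) at 17 dpa, 1 and 4 of 20 (all genes, 10.8% and 16.3%) at 28 dpa and 0 and 2 of 20 (all genes, 6.26% and 6.89%) at 28 against 17 dpa. Bnip3 was the 1 higher gene at 28 dpa, at 23.2 CPM in the unamputated library and 21.2, 28.8 and 43.5 CPM at 12, 17 and 28 dpa. Hk2 was lower at 28 dpa, at 28.8 CPM in the unamputated library and 34.3, 24.3 and 11.2 CPM at 12, 17 and 28 dpa, beside Hif1a, given above, and Eno1, at 143, 82.4, 62.2 and 75.2 CPM over the 4 libraries. Slc16a3 was lower at 28 dpa than in the unamputated library and at 17 dpa, at 21.2, 22.6, 24.1 and 11.9 CPM, and P4ha1 lower at 12 dpa, at 174, 109, 139.8 and 125 CPM. Hk2 and Slc16a3 were lowest at 28 dpa and Eno1 at 17 dpa. Higd1a, with a log2 ratio of 0.58 (0.47 to 0.70) at 28 dpa, and Pkm, with 0.55 (0.48 to 0.63), were short of the threshold.

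In osteoblast-like cells, the bone-forming class, the enzymes Eno1, Gapdh, Pgk1 and Pgam1 were lower at 17 and 28 dpa than in the unamputated library and Ndrg1 was higher, and the other 12 of the 16 enzymes did not pass the rule at these times. The counts were 2 and 5 of 21 (all genes, 5.09% and 10.4%) at 17 dpa, 3 and 7 of 22 (all genes, 7.13% and 27.3%) at 28 dpa and 3 and 1 of 22 (all genes, 3.05% and 10.7%) at 28 against 17 dpa. Gapdh was at 367 CPM in the unamputated library and 139 and 181 CPM at 17 and 28 dpa. Pgk1 was at 89.6, 39.8 and 52.00 CPM in the same 3 libraries and Hif1a at 181, 118 and 104 CPM. Each was highest in the unamputated library. Ndrg1 was at 10.2 CPM in the unamputated library and 40.2 and 37.1 CPM at 17 and 28 dpa. Slc2a3 was at 15.5, 35.5 and 27.5 CPM and Bnip3 at 15.8, 18.6 and 29.3 CPM, and these 3 genes were lowest in the unamputated library. At 28 against 17 dpa Ddit4 was higher, at 16.96, 15.3 and 23.8 CPM in these libraries, and Pfkp lower, at 19.9, 20.6 and 13.00 CPM. Median depth of these cells was 20506, 13365 and 6740 UMIs, and the share of members lower at 28 dpa was near that of all genes. The direction of several genes turned when only cells of 5000 to 20000 UMIs were kept. In those cells Gapdh at 28 dpa had a log2 ratio of 0.20 in place of -1.02, Pgk1 0.36 in place of -0.77, and Slc2a3 -0.41 in place of 0.79. Pgam1 was at 0.082 and 0.26 at 17 and 28 dpa in place of -0.81 and -0.65, and P4ha2 at 0.70 at 28 dpa in place of -0.62. In this class, 13 of 17 dissociation stress genes were higher at 17 and 13 at 28 dpa, and 8 and 7 of 8 measured proliferation genes were lower, and the median log2 ratio of all genes was -0.30 at 28 dpa. Their part in the ratios was not tested.

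The unnamed stromal clusters 20 and 26 had members higher at 28 dpa. Cluster 20, whose next classes were tenocyte and cartilage or joint lining, had 1 and 1 of 21 (all genes, 4.99% and 7.45%) higher and lower members at 17 dpa, 5 and 3 of 22 (all genes, 11.2% and 17.5%) at 28 dpa and 3 and 1 of 22 (all genes, 6.63% and 8.04%) at 28 against 17 dpa. Slc2a3 was there at 7.39 CPM in the unamputated library and 15.9 and 28.03 CPM at 17 and 28 dpa. Tpi1 was at 66.1, 91.4 and 128 CPM in the same 3 libraries, Hk2 at 43.1, 51.2 and 81.1 CPM and Ddit4 at 13.3, 8.39 and 22.7 CPM. A glucose carrier, the inducible hexokinase and the triose isomerase were thus each highest at 28 dpa. P4ha2 was highest at 17 dpa, at 26.5, 43.9 and 20.5 CPM, and Eno1 was lower at 17 and 28 dpa, at 56.3, 25.8 and 34.9 CPM, and Hif1a and Gpi1 were lower at 28 dpa, at 266, 186 and 161 CPM and 72.5, 50.6 and 47.7 CPM. Cluster 26, led by Apod, Foxd1 and Cldn1, had 3 and 2 of 22 (all genes, 6.61% and 8.33%) and 5 and 2 of 22 (all genes, 8.55% and 14.8%) at 17 and 28 dpa and 1 and 1 of 22 (all genes, 4.42% and 6.57%) at 28 against 17 dpa. Slc2a1 was far higher there after amputation, at 69.7 CPM in the unamputated library and 248 and 284 CPM at 17 and 28 dpa. Ndrg1 was at 125 CPM in the unamputated library and 254 and 276 CPM at 17 and 28 dpa. For Slc2a1 these were the highest levels outside cluster 27. Hk2 was at 42.6, 96.3 and 49.9 CPM in the same 3 libraries, highest at 17 dpa, and Ddit4 at 38.5, 54.97 and 70.7 CPM. Hif1a and Eno1 were lower at 17 and 28 dpa, at 117, 71.6 and 75.7 CPM and 88.6, 27.7 and 42.6 CPM. The unamputated library held 75 cells of this cluster.

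Osteoclast-like cells, from 90, 56 and 85 cells, had 1 and 1 of 20 (all genes, 4.42% and 13.9%) and 1 and 6 of 18 (all genes, 17.7% and 12%) higher and lower members at 12 and 17 dpa. Ndrg1 was higher at both times, at 26.7 CPM in the unamputated library and 50.2 and 40.7 CPM at 12 and 17 dpa. Hk2 and Aldoa were lower at 17 dpa, Hk2 at 68.8 CPM in the unamputated library and 70.4 and 26.1 CPM at 12 and 17 dpa, beside Eno1, Hk1, Pgk1 and Slc2a1. Under a stricter filter on cells the ratio of Hk1 at 17 dpa turned, from -0.99 to 0.15, and with clusters at resolution 2 that of Ndrg1 at 12 dpa, from 0.88 to -0.039.

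In macrophage- or monocyte-like cells glycolytic genes were lower at 17 and 28 dpa. The counts were 1 and 1 of 23 (all genes, 3.14% and 21%), 0 and 6 of 22 (all genes, 3.89% and 5.48%) and 0 and 9 of 22 (all genes, 9.13% and 15%) at 12, 17 and 28 dpa and 0 and 0 of 21 (all genes, 2.68% and 4.5%) at 28 against 17 dpa. Slc2a1 was at 64.3 CPM in the unamputated library and 53.9, 35.6 and 25.9 CPM at 12, 17 and 28 dpa. Eno2 was at 21.6, 14.9, 11.7 and 8.39 CPM over the 4 libraries, beside Eno1, given above, and both glucose carrier and enolases were lowest at 17 or 28 dpa. At 28 dpa Pfkl, Slc16a3, Pgk1, Pgam1 and Gapdh were lower too, Gapdh at 919 CPM in the unamputated library and 1047, 615 and 575 CPM at 12, 17 and 28 dpa. Ddit4 was the 1 higher member at 12 dpa, at 16.7, 26.1, 8.33 and 3.93 CPM over the 4 libraries. The mix of clusters moved with these ratios. Cluster 25, led by F13a1, Pf4 and Folr2, genes of resident macrophages, supplied 153, 45, 577 and 1595 cells, and clusters 0 and 13 supplied 453, 170, 132 and 66 and 1268, 941, 694 and 363. The part of this mix in the ratios was not tested.

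Neutrophil-like cells had 0 and 3 of 20 (all genes, 5.66% and 10.6%) at 17 dpa, the lower ones being Eno1, at 172 and 72.5 CPM, Hk2, at 98.96 and 53.1 CPM, and Hk1, at 45.5 and 28.3 CPM in the unamputated and 17 dpa libraries. Cluster 15 had 6 and 1 of 25 (all genes, 10.8% and 18%), 0 and 3 of 22 (all genes, 6.14% and 8.44%) and 0 and 5 of 22 (all genes, 13.2% and 11%) higher and lower members at 12, 17 and 28 dpa and 0 and 3 of 23 (all genes, 11.3% and 7.77%) at 28 against 17 dpa. Pdk1 was higher at 12 dpa, at 3.47, 21.02, 4.03 and 3.67 CPM over the 4 libraries. So were Ankrd37, at 15.6, 38.2, 21.5 and 11.02 CPM, and Egln3, at 16.8, 38.2, 16.1 and 29.4 CPM. These 3 rest on 11, 20 and 20 UMIs at 12 dpa. Gpi1 was lower at 12 dpa, at 126, 68.8, 168 and 110.2 CPM, and Slc2a1 was lower at 28 than at 17 dpa, at 161, 243, 188 and 95.5 CPM. At 17 and 28 dpa only lower members passed the rule in this cluster. Hk2 was at 110.0 CPM in the unamputated library and 109, 41.6 and 36.7 CPM at 12, 17 and 28 dpa. P4ha1 was at 116, 143, 51.05 and 51.4 CPM over the 4 libraries and Eno1 at 109, 103, 44.3 and 62.5 CPM. Pgam1 was at 115, 145, 79.3 and 36.7 CPM, lowest at 28 dpa, while the other 3 were already lower at 17 dpa.

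Dendritic-like cells had 1 and 4 of 21 (all genes, 6.78% and 27.3%), 0 and 2 of 21 (all genes, 4.66% and 12.9%) and 2 and 2 of 21 (all genes, 8.41% and 25.5%) at 12, 17 and 28 dpa and, at 28 against 17 dpa, 5 and 0 of 20 (all genes, 7.24% and 11.9%). Their level of Slc2a3 was highest at 28 dpa, at 27.1 CPM in the unamputated library and 20.8, 20.1 and 66.5 CPM at 12, 17 and 28 dpa. Eno1 and Aldoa were lowest at 17 dpa and higher again at 28 dpa, at 153, 71.1, 42.1 and 93.4 CPM and 243, 289.7, 195 and 355 CPM over the 4 libraries. Hif1a was at 134, 97.1, 74.2 and 72.2 CPM over the 4 libraries, lower at 17 and 28 dpa. Higd1a was at 80.4, 156, 101 and 123 CPM, lowest in the unamputated library. At 12 dpa Egln1 and Slc16a3 were lower, at 47.7, 26.02, 43.04 and 56.6 CPM and 36.5, 22.6, 26.6 and 31.1 CPM over the 4 libraries.

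T- or NK-like cells had the most members past the rule at 12 dpa among the classes. The counts were 4 and 6 of 24 (all genes, 9.54% and 21.3%) at 12 dpa, 2 and 6 of 24 (all genes, 9.11% and 15.1%) at 17 dpa, 4 and 4 of 27 (all genes, 7.56% and 18.9%) at 28 dpa and 3 and 2 of 26 (all genes, 3.51% and 8.33%) at 28 against 17 dpa, from 276, 157, 116 and 78 cells. Hk2 was higher at each time, at 21.9 CPM in the unamputated library and 46.4, 46.1 and 70.3 CPM at 12, 17 and 28 dpa. Slc2a3 and Egln3 were lower at each time, Slc2a3 at 155 CPM in the unamputated library and 80.4, 84.2 and 75.01 CPM at 12, 17 and 28 dpa. Hif1a was lower at 17 and 28 dpa, at 391 CPM in the unamputated library and 339, 236 and 141 CPM at 12, 17 and 28 dpa. In these cells, then, the inducible hexokinase and the high-affinity glucose carrier went in opposite directions. Ndrg1 was higher at 12 dpa, at 49.3, 116, 50.1 and 84.4 CPM over the 4 libraries. Higd1a was higher at 17 and 28 dpa, at 95.8, 100.01, 146 and 202 CPM. Egln1 was lower at 12 dpa, at 70.5, 37.5, 48.1 and 42.2 CPM, and Eno1 at 12 and 17 dpa, at 119.7, 66.1, 66.1 and 108 CPM. The mTOR inhibitor Ddit4 was higher at 12 dpa and lower at 17 and 28 dpa, at 116, 204, 62.1 and 51.6 CPM. Bnip3 was highest at 28 dpa, at 4.79 CPM in the unamputated library and 10.7, 2.004 and 23.4 CPM at 12, 17 and 28 dpa, the last from 5 UMIs. At 28 against 17 dpa Pgam1 and Aldoa were higher, at 61.6, 96.4, 38.1 and 79.7 CPM and 194, 259, 184 and 319 CPM over the 4 libraries, and Pfkp lower, at 89.6, 78.6, 132 and 75.01 CPM.

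B lineage-like cells had 0 and 3 of 20 (all genes, 8.45% and 9.78%) at 17 dpa, 4 and 1 of 20 (all genes, 9.6% and 14.7%) at 28 dpa and, at 28 against 17 dpa, 2 and 0 of 19 (all genes, 3.87% and 6.67%). Values in this class rest on few UMIs, since 1 UMI equals 1.29, 2.39 and 4.45 CPM in the unamputated, 17 and 28 dpa libraries. Slc16a1 was lower in these cells, at 53.1 CPM in the unamputated library and 9.55 and 17.8 CPM at 17 and 28 dpa. P4ha1 was at 95.8, 45.3 and 80.1 CPM in the same 3 libraries and Hif1a at 120.4, 69.2 and 93.5 CPM, both lowest at 17 dpa. At 28 dpa Pfkp was higher, at 25.9, 19.1 and 57.9 CPM, as was Ankrd37, at 7.77, 19.1 and 35.6 CPM. The Pfkp levels come from 20, 8 and 13 UMIs. Ldha was at 67.3, 66.8 and 134 CPM, higher at 28 dpa. Without removal of doublets the ratio of Ldha at 28 against 17 dpa was -0.0025 in place of 0.99, so this gene turned with that choice.

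Keratinocyte-like cells had few members higher, as few of all genes were, so this was not particular to the members. Their enzyme sums were 2436, 2246, 2239 and 2117 CPM in basal and 2539, 2443, 2372 and 2365 CPM in suprabasal cells over the 4 libraries, highest in the unamputated one. Basal ones had 0 and 2 of 23 (all genes, 2.02% and 6.14%), 1 and 3 of 23 (all genes, 2.45% and 8.59%) and 0 and 5 of 23 (all genes, 5.65% and 16.2%) at 12, 17 and 28 dpa and, at 28 against 17 dpa, 0 and 0 of 21 (all genes, 1.98% and 2.39%). Hif1a was at 314 CPM in the unamputated library and 316, 176 and 156 CPM at 12, 17 and 28 dpa, level at 12 dpa and lower at 17 and 28 dpa. Eno1 was at 146, 80.7, 59.3 and 72.2 CPM over the 4 libraries, highest in the unamputated one. Hk2 was at 24.3, 25.1, 16.2 and 11.7 CPM, lower at 28 dpa, and P4ha1 at 80.3, 48.7, 63.9 and 52.6 CPM, lower at 12 and 28 dpa. Higd1a was at 110.3, 136, 168 and 143 CPM, higher at 17 dpa. Suprabasal ones had 1 and 5 of 22 (all genes, 2.58% and 11.8%), 1 and 4 of 22 (all genes, 2.16% and 10.7%) and 0 and 4 of 23 (all genes, 5.23% and 19.2%), and 0 and 0 of 22 (all genes, 2.1% and 3.66%) at 28 against 17 dpa. Egln3 in them was at 21.3 CPM in the unamputated library and 3.05, 18.4 and 17.6 CPM at 12, 17 and 28 dpa, low at 12 dpa only. Higd1a was higher at 12 and 17 dpa, as its levels above show. Eno1 was at 188, 131, 77.1 and 115 CPM over the 4 libraries and Hif1a at 237, 239.8, 144 and 138 CPM, both lower at 17 and 28 dpa. Slc16a1 was at 47.6, 28.1, 37.04 and 29.8 CPM and Egln1 at 89.9, 55.5, 75.1 and 60.5 CPM, both lower at 12 dpa, and Slc16a1 at 28 dpa as well. Ndrg1 was lower at 17 dpa in both kinds, at 21.8, 14.3, 13.2 and 17.1 CPM in basal and 27.8, 17.1, 14.7 and 21.2 CPM in suprabasal cells over the 4 libraries, and in cells of 5000 to 20000 UMIs these log2 ratios were 0.23 and 0.44, in the other direction.

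Cluster 6, led by Lef1, Krt28 and Slc39a10, genes of the growing hair, had 4 and 1 of 21 (all genes, 5.11% and 16.6%) at 12 dpa and 4 and 0 of 20 (all genes, 8.03% and 18.9%) at 28 dpa. Aldoa was at 99.7 CPM in the unamputated library and 192 and 382 CPM at 12 and 28 dpa. Hk1 was at 9.26, 34.9 and 30.1 CPM and Pfkp at 28.1, 50.9 and 61.8 CPM in the same 3 libraries. A hexokinase, a phosphofructokinase and an aldolase were thus higher at both times. Slc2a1 was higher at 12 dpa, at 13.5, 25.4 and 18.2 CPM, and Eno1 lower, at 94.7, 34.9 and 63.9 CPM.

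Vessel and nerve classes differed mostly in Eno1 and Ndrg1. Vascular endothelial-like cells had 0 and 2 of 20 (all genes, 2.9% and 4.9%), 0 and 1 of 21 (all genes, 1.8% and 2.48%) and 1 and 2 of 21 (all genes, 5.05% and 10.3%) at 12, 17 and 28 dpa and, at 28 against 17 dpa, 1 and 0 of 21 (all genes, 2.19% and 3.76%). Ndrg1 was higher at 28 dpa, at 207 CPM in the unamputated library and 143, 311 and 317 CPM at 12, 17 and 28 dpa. Pfkl was lower at 12 dpa, at 28.1, 18.2, 24.4 and 20.9 CPM over the 4 libraries. Eno1 was at 69.7, 43.7, 24.2 and 43.2 CPM, lower at all 3 times and lowest at 17 dpa. Lymphatic endothelial-like cells, compared at 12 dpa, had 1 and 1 of 19 (all genes, 5.05% and 7.76%), with Ddit4 at 67.4 and 132 CPM and Eno1 at 69.8 and 37.4 CPM in the unamputated and 12 dpa libraries. Mural-like cells, which wrap vessels, had 0 and 1 of 24 (all genes, 3.36% and 7.13%), 1 and 1 of 23 (all genes, 2.24% and 2.92%) and 2 and 1 of 24 (all genes, 6.93% and 16.6%), and 0 and 0 of 22 (all genes, 1.63% and 3.48%) at 28 against 17 dpa. Ndrg1 in them was at 26.9 CPM in the unamputated library and 19.5, 44.7 and 53.8 CPM at 12, 17 and 28 dpa, higher at 17 and 28 dpa as in osteoblast-like cells. Slc2a3 was at 24.5, 18.8, 37.2 and 37.7 CPM over the 4 libraries, higher at 28 dpa, and Eno1 at 75.1, 44.2, 29.4 and 41.9 CPM.

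Schwann-like cells, the glia of nerves, had 1 and 1 of 19 (all genes, 3.09% and 5.88%), 1 and 3 of 19 (all genes, 7.6% and 9.61%) and 4 and 1 of 20 (all genes, 10.1% and 13.8%), and 4 and 0 of 21 (all genes, 8.14% and 9.15%) at 28 against 17 dpa. Slc2a3 was at 12.04 CPM in the unamputated library and 22.2, 17.99 and 31.3 CPM at 12, 17 and 28 dpa, and Bnip3 at 8.29, 4.55, 7.87 and 20.1 CPM over the 4 libraries. Both were highest at 28 dpa. Eno1 was at 45.7, 23.3, 12.4 and 26.8 CPM over the 4 libraries, P4ha2 at 86.1, 75.2, 28.1 and 62.6 CPM and Pgk1 at 121, 93.4, 74.2 and 90.6 CPM. Each of the 3 was lowest at 17 dpa. Ndrg1, already high in these cells, was higher at 17 and 28 dpa, at the levels given above. Cluster 27 had 0 and 3 of 23 (all genes, 5.23% and 7.75%) and 0 and 6 of 24 (all genes, 7.04% and 9.46%) at 17 and 28 dpa and, at 28 against 17 dpa, 2 and 1 of 25 (all genes, 5.33% and 5.7%). Eno1 in it was at 64.9, 26.1 and 36.5 CPM in the unamputated, 17 and 28 dpa libraries and P4ha1 at 206, 114 and 125 CPM, both lower at 17 and 28 dpa, and Slc16a1, given above, was lower at 28 dpa. Hk1 was at 56.3, 28.8 and 53.8 CPM, lower at 17 dpa. Epas1 was at 15.9, 6.53 and 28.8 CPM, higher at 28 than at 17 dpa, and Eno2 at 23.3, 24.8 and 7.69 CPM, lowest at 28 dpa. Slc2a1 and Ndrg1, its highest members, passed the rule in none of the comparisons there.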

How the data were processed

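Single cells of 4 libraries, 1 per group, were analysed from raw UMI counts per gene and barcode, deposited by the authors. They were made with Cell Ranger 7.1.0 on the mm10 build, per the submitters' processing notes. The settings of cell calling and intron counting are not given in the sources used here. A cell had to show at least 500 genes, 1000 UMIs and no more than 10% mitochondrial UMIs, after the highest Scrublet scores had been removed as doublets at 0.8% per 1000 barcodes, which took 7.04 to 12.6% of barcodes. Scrublet's own threshold marked 1.91 to 4.81%. Cells were clustered without the 33 genes, the pathway lists, mitochondrial and sex-linked genes, on 2000 variable genes, 30 principal components and 15 neighbours, with Leiden at resolution 1 and seed 0 in double precision (scanpy 1.11.5, leidenalg 0.10.2, igraph 0.11.9, Python 3.11.15, numpy 2.4.6, scipy 1.17.1, pandas 2.3.3, scikit-learn 1.9.0, matplotlib 3.10.9). Clusters were named from 22 marker lists. At least 3 markers had to be detected in 25% of cells, a rule set once the clusters were known. UMIs were summed per class and library and given as CPM of all UMIs of the class. Levels have exact Poisson and shares exact Clopper-Pearson 95% intervals, which cover counting error only. The ratio rule alone was tested, on simulated Poisson counts of the fibroblast-like class. Those counts hold no variation between cells or libraries, so the test says nothing on clustering, naming or the spread between libraries. Per class and pair of libraries, the members past the 1.5-fold rule were counted and the 3 with the largest ratio in each direction were named, and of the other lists the 2 largest in fibroblast-like cells. By class, the 2 highest and 2 lowest classes of each member were tabulated per library, and the text gives mainly the highest. One gene that the rule names from the other lists is not reported here. The members and lists were chosen with earlier results of these data known. Aldoa has 2 gene identifiers with 119926 and 117 UMIs over all barcodes, and the first was used. Gene spans are from GENCODE M21. Alternatives covered cell filters (looser, 200 genes, 500 UMIs and 20%, and stricter, 1000 genes, 3000 UMIs and 5%), doublets, resolution, naming, scaling, depth, minimum level, fold, pooling, single clusters and seeds, and those of the pseudocount, single clusters, naming by best class and seeds were chosen after seeing the data.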

Additional observations from a re-analysis of the deposited data

Results flagged for a closer look

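Ndrg1 at 17 dpa against the unamputated library moved in opposite directions in different classes, with a log2 ratio of 1.87 in osteoblast-like cells and -0.88 in suprabasal keratinocyte-like cells. It was higher by the 1.5-fold rule in 4 named classes and lower in 2. The difference between classes was not tested. In cells of 5000 to 20000 UMIs the suprabasal ratio was 0.44, so the opposition did not hold there.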

How the results depend on the processing

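No paired analysis was possible because each group had 1 library, and no library could be left out for the same reason. In fibroblast-like cells the members past the threshold numbered 2, 2, 7 and 3 at 12, 17 and 28 dpa and at 28 against 17 dpa. At 12 dpa the count was 6 with the stricter cell filter, 6 with no doublets removed, 1 at resolution 2, 4 with each cell named alone, 4 in cells of 5000 to 20000 UMIs, 4 and 0 with minimums of 5 and 100 CPM, 0 at 2-fold, 4 pooled with tenocyte-like cells, 5 in cluster 10, 1 in cluster 18, 5 without cluster 18 and 5 with seed 3. At 17 dpa it was 5 with the looser filter, 4 at resolution 2, 5 with each cell named alone, 4 with centred ratios, 4 from the mean of each cell's CPM, 1 at 100 CPM, 1 at 2-fold, 4 pooled, 4 in cluster 10, 7 in cluster 18 and 5 with each cluster given its top-scoring name. At 28 dpa it was 11 at resolution 2, 13 in cells of 5000 to 20000 UMIs, 11 at 5 CPM and 1 at 2-fold. At 28 against 17 dpa it was 6 at resolution 2, 5 with centred ratios, 1 at 2-fold and 1 pooled, as it was in clusters 10 (1) and 11 (1). Higher and lower calls over the other named classes, unnamed clusters left out, numbered 10 and 26, 9 and 45, 21 and 40, and 18 and 5 in the same 4 comparisons. With centred ratios they were 20 and 12 at 12 dpa, 37 and 24 at 28 dpa and 28 and 2 at 28 against 17 dpa. In cells of 5000 to 20000 UMIs 12 were lower at 12 dpa, 14 higher and 26 lower at 17 dpa and 24 lower at 28 dpa. Higher calls at 12 dpa were 18 with no doublets removed and 17 with seeds 1 and 4 alike. Lower calls at 28 against 17 dpa were 8 with the stricter filter, 12 at resolution 2, 9 with seed 1 and 11 with seed 4. The ratio of the osteoclast-like to the fibroblast-like enzyme sum (4.41, 3.69 and 3.01) was 5.02, 3.37 and 3.83 with the stricter filter, 5.16, 3.89 and 4.19 at resolution 2, 4.81, 4.12 and 3.13 from the mean of each cell's CPM, 4.67, 4.11 and 3.18 with seed 1 and 5.07, 4.32 and 3.88 with seed 4, and no such class formed with seeds 2 and 3. The 14 calls of single genes in fibroblast-like cells gave 298 values over the alternatives, which kept the direction in all and the call in 235. Genes without a call were not followed. The minimums of 5 and 100 CPM, the 2-fold threshold and the pseudocount of 5 CPM cannot turn a direction, and the 5 CPM minimum cannot end a call. Hif1a at 28 dpa kept its call in each alternative. Eno1 at 17 dpa lost it at a minimum of 100 CPM only, by the construction of that filter. The unnamed clusters held 67 further calls. They were put only to the 6 alternatives that keep the clusters and their numbers, 4 of them extended to these clusters after seeing the data. The call held in 270 of 363 values and the direction in all. With the minimums of 5 and 100 CPM and at 2-fold the ratio is unchanged, so its direction could not turn. The call held in 57 of 67 from the mean of each cell's CPM and in 62 of 67 with centred ratios. In cells of 5000 to 20000 UMIs 28 of the calls could be recomputed, and 24 held. In other named classes the call held in 1373 of 1640 and the direction turned in 12. Those were Hk1 in osteoclast-like cells at 17 dpa with the stricter filter (0.15), Ldha in B lineage-like cells at 28 against 17 dpa with no doublets removed (-0.0025), Ndrg1 in osteoclast-like cells at 12 dpa at resolution 2 (-0.039), and 9 in cells of 5000 to 20000 UMIs. The 9 were Ndrg1 in suprabasal keratinocyte-like cells at 12 and 17 dpa (1.70 and 0.44) and in basal ones at 17 dpa (0.23), and in osteoblast-like cells Pgam1 at 17 dpa (0.082) and, at 28 dpa, Gapdh (0.20), Pgk1 (0.36), Pgam1 (0.26), Slc2a3 (-0.41) and P4ha2 (0.70). The cause of these shifts was not tested. Depth fell from a median of 11669 UMIs per cell in the unamputated library to 6660.5 at 28 dpa, and with 1 library per group the intervals cover counting error only.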
